A study of Mus musculus with 48 samples.

Results

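A set of 10 genes near Msh3 on mouse chromosome 13 was followed through cerebral cortex of 12-month-old mice in which the Msh3 genotype varied: Cmya5, Fam169a, Ankrd34b, F2r, F2rl2, Bhmt2, Dmgdh, AW495222, Col4a3bp and Vcan. They are 10 of the 48795 genes counted. They were chosen by their counts: they lie within 20 Mb of Msh3 and differed between libraries labelled Msh3-/- and wild type, and Rasgrf2, which did the same, was left aside. The study crossed the Q140 allele, a huntingtin gene carrying a long CAG repeat as a knock-in, with a mutant Msh3 allele on a strain labelled C57BL/6. RNA-seq was done on 48 libraries in 6 groups of 8, each with 4 females and 4 males: wild type, Msh3+/-, Msh3-/-, heterozygous Q140 with unaltered Msh3 (Q140), heterozygous Q140 with Msh3+/- (Q140 Msh3+/-), and heterozygous Q140 with Msh3-/- (Q140 Msh3-/-). No group carried 2 Q140 alleles, and the labels name neither the part of Msh3 that was altered nor the origin of the chromosome on which it was made. The extraction text speaks of striatum at another age, while every other label gives cortex at 12 months. In these libraries 4 marker genes of glutamatergic cortical neurons summed to 1590 to 1880 CPM (counts per 1000000 counted reads, scaled by TMM), and 6 markers of striatal projection neurons to 141 to 185 CPM.

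MSH3 is a mismatch repair protein that recognises small loops in DNA, and it drives the lengthening of CAG repeats in the cells of mice with an expanded huntingtin gene. An engineered allele is inherited together with the stretch of chromosome around it. In the present design the Msh3 genotype and the linked DNA cannot be told apart.

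Each library held 37657977 to 68300525 counted reads. Msh3 itself (ENSMUSG00000014850, GRCm38 chromosome 13, 92211872 to 92355003) did not fall in the libraries labelled as mutants. Its level was 22.4 ± 1.16 CPM in wild type, 60.1 ± 3.06 in Msh3+/- and 99.2 ± 8.15 in Msh3-/- (SD, n = 8 each), and 21.8 ± 0.979, 57.9 ± 3.01 and 95.3 ± 8.03 CPM in the matching Q140 groups. The count therefore rose with each copy of the mutant allele. It separated the 3 labelled genotypes but, as a sum over the whole gene, does not show whether functional transcript was lost, so genotypes below are those of the labels. One Msh3+/- library (M2) stood apart by choroid plexus genes and one wild type library (M2) by pituitary genes, and neither belongs to a group compared within Q140 libraries. The libraries are labelled as separate samples, and p-values measure the spread between them.

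The members fall into a few kinds of gene. F2r and F2rl2 encode protease-activated receptors, which thrombin and other proteases switch on by cutting their outer end. Bhmt2 encodes an enzyme that remethylates homocysteine to methionine, Dmgdh the mitochondrial enzyme that oxidises dimethylglycine, and AW495222 a non-coding RNA transcribed antisense inside Dmgdh. Col4a3bp, now named Cert1, encodes the ceramide transfer protein, Vcan the matrix proteoglycan versican, and Cmya5 myospryn, a large protein known from striated muscle. Ankrd34b encodes an ankyrin repeat protein. Per length, in deposited FPKM (fragments scaled to gene length and library depth), the order in wild type was Fam169a at 17.5 ± 0.564, Col4a3bp at 15.3 ± 0.595, AW495222 at 5.49 ± 0.696, Ankrd34b at 5.49 ± 0.521, Vcan at 1.47 ± 0.0643, Cmya5 at 1.39 ± 0.129, F2r at 1.12 ± 0.181, F2rl2 at 1.08 ± 0.231, Bhmt2 at 0.390 ± 0.0811 and Dmgdh at 0.161 ± 0.0365 (SD, n = 8). AW495222 and Ankrd34b, Vcan and Cmya5, and F2r and F2rl2 were neighbours in that order that differed by less than their spread.

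Several members sit beside or inside one another. Bhmt2 and Dmgdh start 130 bp apart and run away from each other, so the 300-base RefSeq promoter windows of the pair (250 bases before and 50 after each start) share 233 bases. F2r and F2rl2 are related receptors on opposite strands, and both windows hold the AP-1 letters TGAGTCA, which with the complement TGACTCA occur in 5.20% of 32851 promoter windows. The 3 stretches below are shown because the members of each pair had log2 fold changes of opposite sign. All come from RefSeq's GRCm38.p6 promoter table, are written 5′ to 3′, and have AP-1 (TGAGTCA) and GC box (GGGCGG or CCGCCC) letters in capitals.
Bhmt2 to Dmgdh gap, chr13:93674303-93674432, plus strand: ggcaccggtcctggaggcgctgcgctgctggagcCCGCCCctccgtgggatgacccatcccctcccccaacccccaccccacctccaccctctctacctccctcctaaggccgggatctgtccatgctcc
F2r upstream, chr13:95618488-95618716, minus strand: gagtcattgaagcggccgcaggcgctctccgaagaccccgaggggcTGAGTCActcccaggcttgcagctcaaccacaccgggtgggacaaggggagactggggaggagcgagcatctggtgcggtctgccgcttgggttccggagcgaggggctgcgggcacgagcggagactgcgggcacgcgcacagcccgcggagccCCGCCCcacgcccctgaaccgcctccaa
F2rl2 match, chr13:95696856-95696882, plus strand: aggctcagccTGAGTCAtgcacacaga
The gap between Bhmt2 and Dmgdh is 70.8% G or C and holds 1 GC box, a motif found in 27.3% of promoter stretches of that length next to the start. The F2r stretch is 70.7% G or C and holds 1 AP-1 match, against 4.16% of promoters over the same 229 bases, and 1 GC box. All 10 members matched the promoter table, Col4a3bp as Cert1 and Fam169a with 2 windows. The F2rl2 match lies before the RefSeq start but inside the gene span given below, since the annotations place that start differently. These matches describe letters only, and no binding was measured.

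The members were selected on libraries labelled Msh3-/- against wild type, so those values are a description and carry no test. In that comparison 22 of 19547 genes tested had an adjusted p under 0.05, which is 0.113% of them, by edgeR's quasi-likelihood test with Benjamini-Hochberg adjustment. Of the 22 genes, 12 lay within 20 Mb of Msh3: the 10 members, Msh3 and Rasgrf2. The members' log2 fold changes there ran from -1.14 for F2rl2 to 1.18 for Dmgdh, with 8 below 0 and 2 above it. Just inside the threshold were Vcan (adjusted p 0.0256) and Col4a3bp (0.0130), and just outside it were Lncenc1 (0.233), Sv2c (0.257), Edil3 (0.257), Rab3c (0.262) and Gm26559 (0.262).

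The Q140 libraries took no part in that choice, and Msh3 genotype could be tested in them. In Q140 Msh3-/- against Q140, 7 members were lower and F2r was higher, each at an adjusted p under 0.05 over all genes. This count of 8 of 10 stands against 20 of all 19547 genes tested, or 0.102%. By direction the background was 13 genes lower (0.0665%) and 7 higher (0.0358%). All 10 members had the sign seen without Q140, including Dmgdh and Vcan, which did not pass. The share of genes with the same sign was not computed over all genes tested. The medians of the log2 fold change were -0.33 over the members and 0.00 over all genes tested.

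**Figure D1:**
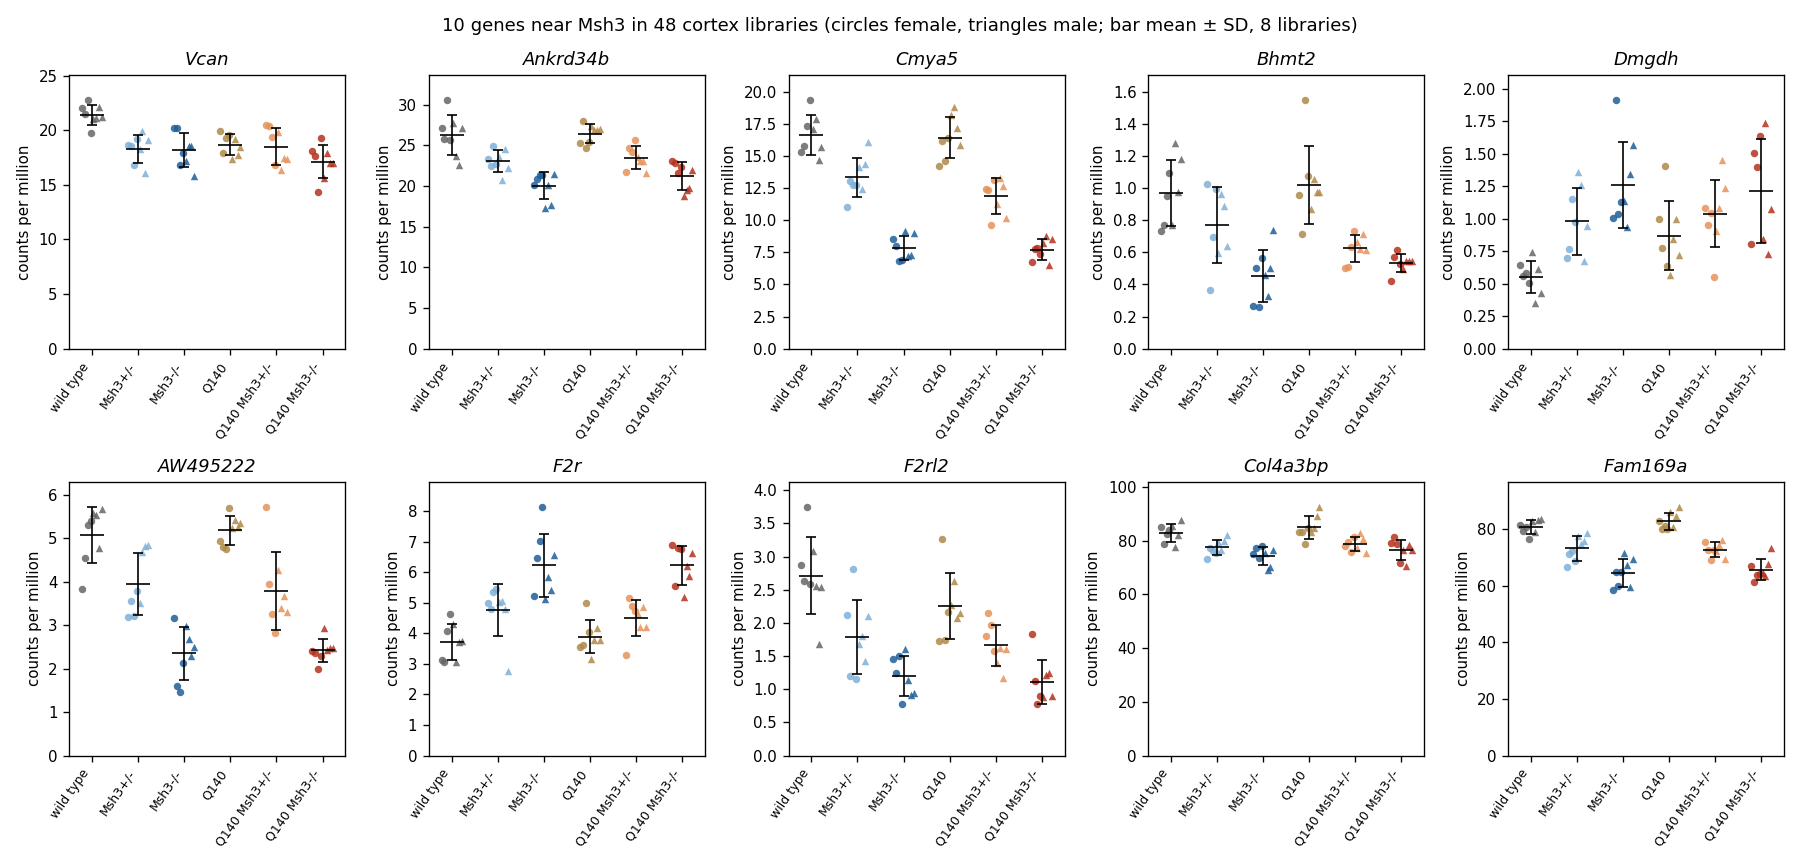
CPM of the 10 members in every library, by genotype group, with circles for females, triangles for males and bars for the mean ± SD of 8 libraries. Cmya5 and AW495222 step down and F2r steps up across the 3 Msh3 genotypes with and without Q140.

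Cmya5 (ENSMUSG00000047419, chromosome 13, 93040713 to 93144724) changed by more than its spread at each step of the Msh3 genotype. It ranged from 14.2 to 18.8 CPM in Q140 (median 16.3), from 9.60 to 13.3 in Q140 Msh3+/- (median 12.4) and from 6.55 to 8.80 in Q140 Msh3-/- (median 7.78). No library of any of these 3 groups reached into another. Against Q140 the log2 fold change was -1.09 ± 0.07 (SE; fold 0.469, edgeR adjusted p 1.33e-16) in Q140 Msh3-/- and -0.47 ± 0.07 (adjusted p 7.03e-05) in Q140 Msh3+/-. Without Q140 the median was 16.4 CPM in wild type, 12.9 in Msh3+/- and 7.64 in Msh3-/-. The antisense gene A630019I02Rik shares 2451 bases, 20.7%, of the exons of Cmya5. The sources used here do not say whether the counting used strand, so reads over those shared bases cannot be told apart.

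Fam169a (ENSMUSG00000041817, 97067286 to 97131013) lies farthest from Msh3 of the members, 4.71 Mb away. Its range was 80.0 to 88.1 CPM in Q140 (median 82.0), 69.2 to 76.4 in Q140 Msh3+/- (median 72.7) and 61.3 to 73.4 in Q140 Msh3-/- (median 64.5). Both groups with mutant Msh3 lay wholly below Q140. The log2 fold changes were -0.33 ± 0.03 (adjusted p 2.6e-10) and, in heterozygotes, -0.19 ± 0.03 (adjusted p 0.00270). In the groups without Q140 the medians were 81.1 in wild type, 73.6 in Msh3+/- and 64.8 CPM in Msh3-/-. Fam169a shares 1590 exon bases, 26.1% of its own, with Nsa2 on the other strand, and Nsa2 had a log2 fold change of -0.04 ± 0.06 (adjusted p 0.912) in Q140 Msh3-/- against Q140.

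Ankrd34b (ENSMUSG00000045034, 92425896 to 92441658) is the member nearest to Msh3, 0.0709 Mb from it. It ranged from 24.6 to 28.0 CPM in Q140 (median 26.8), from 21.6 to 25.7 in Q140 Msh3+/- (median 23.4) and from 18.8 to 23.1 in Q140 Msh3-/- (median 21.8). The homozygotes lay wholly below Q140, and the heterozygotes overlapped both. The log2 fold change was -0.32 ± 0.05 (adjusted p 7.65e-05) in homozygotes, and in heterozygotes it was -0.17 ± 0.05 (adjusted p 0.508). The medians without Q140 were 26.4 CPM in wild type, 23.0 in Msh3+/- and 20.4 in Msh3-/-. Its relatives Ankrd34a and Ankrd34c, on chromosomes 3 and 9, had log2 fold changes of 0.09 ± 0.04 (adjusted p 0.695) and 0.11 ± 0.10 (adjusted p 0.842).

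**Figure D2:**
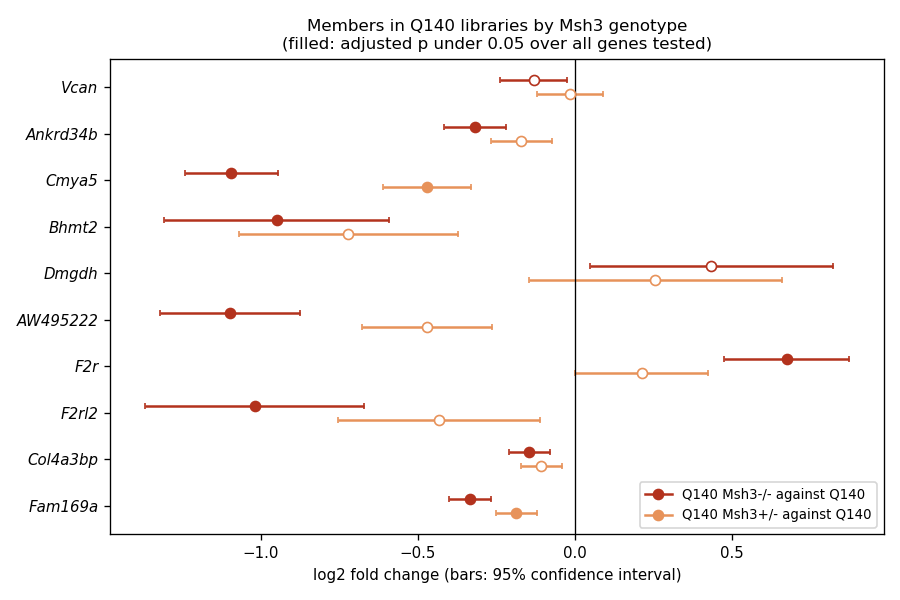
Log2 fold change of each member against Q140 in Q140 Msh3-/- (dark red) and Q140 Msh3+/- (orange), with 95% confidence intervals and filled points where the adjusted p over all genes tested was under 0.05. The homozygous value of Cmya5 is -1.09 and the heterozygous value -0.47, and both of its points are filled.

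The related thrombin-family receptors F2r and F2rl2 moved in opposite directions. F2r (ENSMUSG00000048376, 95601803 to 95618487), which encodes PAR1, the main thrombin receptor, ranged from 3.18 to 5.01 CPM in Q140 (median 3.79), from 3.30 to 5.18 in Q140 Msh3+/- (median 4.68) and from 5.18 to 6.89 in Q140 Msh3-/- (median 6.41). The homozygotes lay above every Q140 library, while the heterozygotes and Q140 overlapped. Its log2 fold change was 0.67 ± 0.10 (fold 1.59, adjusted p 2.92e-05) in homozygotes and 0.21 ± 0.11 (adjusted p 0.777) in heterozygotes.

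F2rl2 (ENSMUSG00000021675, 95696853 to 95702739) encodes PAR3, a receptor known to act as a cofactor that presents thrombin to other members of the family. It ranged from 1.73 to 3.27 CPM in Q140 (median 2.15), from 1.17 to 2.14 in Q140 Msh3+/- (median 1.61) and from 0.783 to 1.83 in Q140 Msh3-/- (median 1.01). The highest homozygous library, F1 at 1.83 CPM, overlapped Q140, and the next highest of its group was at 1.24 CPM. The log2 fold change was -1.02 ± 0.17 (fold 0.494, adjusted p 7.37e-04) in homozygotes and -0.43 ± 0.16 (adjusted p 0.777) in heterozygotes. Without Q140 the medians of F2r were 3.73, 5.02 and 6.16 CPM in wild type, Msh3+/- and Msh3-/-. Those of F2rl2 were 2.61, 1.74 and 1.19 CPM, so the receptors stood in opposite order there too, in the libraries that chose them. F2rl2 lies inside Iqgap2 on the other strand and shares none of its exon bases, and Iqgap2 had a log2 fold change of -0.02 ± 0.09 (adjusted p 0.985).

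The other receptor genes of the family were near the limit of detection. F2rl1, 76.6 kb from F2r, had a mean of 8.31 reads a library and a log2 fold change of -0.89 ± 0.40 in Q140 Msh3-/- against Q140 (adjusted p 0.712). F2rl3, on chromosome 8, averaged 6.08 reads and was not tested. Of 13 tested genes listed with these receptors besides the members (F2rl1, proteases, inhibitors and G proteins), 0 passed the test in this comparison, where 0.102% of all genes did. Their median log2 fold change was -0.0019, against 0.0026 over all genes tested.

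**Figure D3:**
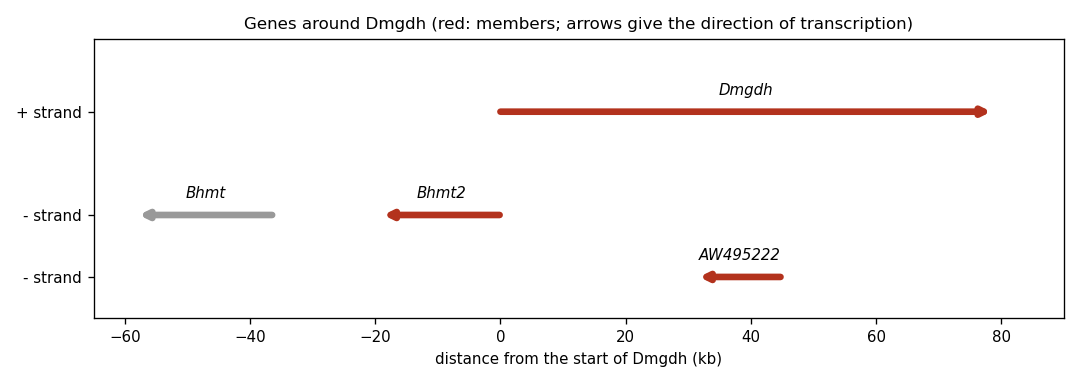
Positions and directions of transcription of Bhmt, Bhmt2, Dmgdh and AW495222, in kb from the start of Dmgdh, with the members in red. Bhmt2 and Dmgdh start 130 bp apart and point away from each other, and AW495222 lies inside Dmgdh on the opposite strand.

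Bhmt2, Dmgdh and AW495222 form one cluster. In Q140 Msh3-/- against Q140, Bhmt2 and AW495222 were lower, and Dmgdh, with a value above 0, did not pass the test. Bhmt2 (ENSMUSG00000042118, 93655720 to 93674302) ranged from 0.712 to 1.55 CPM in Q140 (median 0.977), from 0.502 to 0.733 in Q140 Msh3+/- (median 0.625) and from 0.423 to 0.613 in Q140 Msh3-/- (median 0.548). Every homozygous library was below every Q140 library, while 2 heterozygotes, M3 at 0.715 and F4 at 0.733 CPM, lay above the lowest of Q140, F2 at 0.712 CPM. The log2 fold change was -0.95 ± 0.18 (fold 0.518, adjusted p 0.00478) in homozygotes and -0.72 ± 0.17 (adjusted p 0.238) in heterozygotes. These are low levels, from 13 to 87 reads a library over all 48. Without Q140 the medians were 0.962 CPM in wild type, 0.793 in Msh3+/- and 0.480 in Msh3-/-, and the outermost libraries of wild type (0.735) and Msh3-/- (0.741) met.

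Dmgdh (ENSMUSG00000042102, 93674433 to 93752833), reading away from the same stretch, had log2 fold changes above 0 in each comparison of Msh3 genotypes. It did not pass the test in Q140 libraries. It ranged from 0.567 to 1.41 CPM in Q140 (median 0.811), from 0.556 to 1.45 in Q140 Msh3+/- (median 1.06) and from 0.731 to 1.74 in Q140 Msh3-/- (median 1.24). The 3 groups overlapped. The log2 fold change in homozygotes was 0.43 ± 0.19 (95% confidence interval 0.05 to 0.82, adjusted p 0.712). In heterozygotes it was 0.25 ± 0.20 (edgeR adjusted p 0.835). Without Q140, where the gene was chosen, its median was 0.571 CPM in wild type, 0.960 in Msh3+/- and 1.14 in Msh3-/-, and the 8 wild type libraries ended at 0.747, below the lowest Msh3-/- library at 0.940. The wild type mean of 0.554 ± 0.124 CPM was below the Q140 mean of 0.869 ± 0.267 (SD, n = 8), the comparison in which Msh3 is unaltered on both sides. Wild type libraries helped to choose this gene, so a low wild type level is part of that choice. In Q140 Msh3+/- against Msh3+/-, which uses no choosing library, the log2 fold change was 0.06 ± 0.20 (edgeR adjusted p 0.967).

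AW495222 (ENSMUSG00000087334, 93706182 to 93719175) ranged from 4.76 to 5.70 CPM in Q140 (median 5.25), from 2.82 to 5.73 in Q140 Msh3+/- (median 3.53) and from 1.99 to 2.94 in Q140 Msh3-/- (median 2.42). The homozygotes lay wholly below Q140. The log2 fold change was -1.10 ± 0.11 (fold 0.467, adjusted p 6.25e-10) in homozygotes and -0.47 ± 0.10 (adjusted p 0.0837) in heterozygotes. A single heterozygote, F1 at 5.73 CPM, stood above all Q140 libraries, and without it the heterozygous log2 fold change was -0.58 (adjusted p 7.65e-04). AW495222 shares 215 exon bases with Dmgdh, which are 23.4% of its own and 6.30% of those of Dmgdh. Without Q140 its median was 5.35 CPM in wild type, 3.67 in Msh3+/- and 2.40 in Msh3-/-, and no Msh3-/- library, the highest at 3.17 CPM, reached the lowest wild type library at 3.84 CPM.

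Neighbouring enzymes of one-carbon metabolism were measured beside them. Bhmt, the betaine-dependent relative next to Bhmt2, averaged 0.625 reads a library and was not tested. Sardh, the relative of Dmgdh on chromosome 2 that oxidises sarcosine in the next step, had a log2 fold change of 0.15 ± 0.06 (adjusted p 0.694). Of 28 tested genes of the betaine, dimethylglycine and methionine cycle besides the members, Sardh included, 0 passed in Q140 Msh3-/- against Q140, where 0.102% of all genes did. Their median log2 fold change was -0.01.

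Col4a3bp and Vcan changed least. Col4a3bp (ENSMUSG00000021669, 96542618 to 96640167), whose protein carries ceramide from the endoplasmic reticulum to the Golgi, ranged from 78.7 to 92.8 CPM in Q140 (median 84.0), from 75.3 to 82.7 in Q140 Msh3+/- (median 78.8) and from 70.8 to 81.4 in Q140 Msh3-/- (median 77.6). The groups overlapped. The log2 fold change was -0.15 ± 0.03 (fold 0.904, adjusted p 0.0400) in homozygotes and -0.11 ± 0.03 (adjusted p 0.659) in heterozygotes. The medians without Q140 were 83.3, 77.1 and 75.3 CPM in wild type, Msh3+/- and Msh3-/-. This call rests on the whole set: it was lost in 11 of 16 fits that each left out 1 library, at adjusted p up to 0.190. Polk, whose start is 39 bp away on the other strand, had a log2 fold change of -0.03 ± 0.06 (adjusted p 0.943). Of 27 further tested genes of ceramide transport and sphingolipid synthesis 0 passed, where 0.102% of all genes did.

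Vcan (ENSMUSG00000021614, 89655312 to 89742509), the only member on the lower-coordinate side of Msh3, ranged from 17.4 to 19.95 CPM in Q140 (median 18.8), from 16.3 to 20.5 in Q140 Msh3+/- (median 18.4) and from 14.4 to 19.3 in Q140 Msh3-/- (median 17.3). The groups overlapped, and the log2 fold changes were -0.13 ± 0.05 (adjusted p 0.688) in homozygotes and -0.02 ± 0.05 (adjusted p 0.966) in heterozygotes. Wild type and Msh3-/- libraries chose this gene, so a high wild type level is part of that choice. Wild type had the highest median of the 6 groups, at 19.7 to 22.8 CPM (median 21.4), against medians of 18.8 in Q140, 18.6 in Msh3+/- and 18.2 in Msh3-/-. Its neighbour Hapln1, a link protein of the same matrix, had a log2 fold change of -0.13 ± 0.07 (adjusted p 0.729), and Bcan, the related brevican, one of 0.10 ± 0.05 (adjusted p 0.723). Of 25 tested genes of hyaluronan-binding proteoglycans and their matrix besides Vcan, Hapln1 and Bcan included, 0 passed. Of 12 further partners and relatives of myospryn 0 passed, where 0.102% of all genes did. Versican marks oligodendrocyte precursors in brain, and 6 markers of these cells summed to 124 to 146 CPM in Q140 and 126 to 147 CPM in Q140 Msh3-/-. In whole cortex, fewer cells of a type and less RNA per cell cannot be told apart. From 11 marker lists, from neurons and glia to meninges, choroid plexus and blood, 0 genes passed in Q140 Msh3-/- against Q140, where 0.102% of all genes did. In Msh3-/- against wild type, the comparison that chose the members, 1 of 3 tested pituitary markers passed, and the 5 markers listed summed to 0.419 to 45.4 CPM in wild type and 0.273 to 3.74 CPM in Msh3-/-. Their part in the members' values was not tested.

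Heterozygotes were tested in the same way. In Q140 Msh3+/- against Q140, 2 of 10 members passed, Cmya5 and Fam169a, both lower, against 6 of all 19547 genes (0.0307%), of which 5 were lower (0.0256%) and 1 higher (0.00512%). This comparison shares its Q140 libraries with the homozygous one. Groups of 8 libraries that did not overlap were found for 6 of 10 members in the homozygous comparison (Ankrd34b, Cmya5, Bhmt2, AW495222 and Fam169a lower, F2r higher), against 0.0921% of all genes, and for 2 in the heterozygous comparison, against 0.0409%. Without Q140, Msh3+/- against wild type shares the wild type libraries that chose the members and is given as a description: log2 fold changes ran from -0.60 for F2rl2 to 0.87 for Dmgdh, and Cmya5 alone was under an adjusted p of 0.05 (0.0432), in a comparison where 0.0307% of all genes were.

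Every member's heterozygous mean fell between the means of unaltered Msh3 and Msh3-/-, both with and without Q140. Without Q140 the outer means come from the libraries that chose the members, which makes a place between them likelier. Values without Q140 are therefore a description, and the share over all genes tested was not computed. As a share of that distance in CPM, the heterozygous position had a median of 52.1% over the members with Q140 and 49.1% without. In Q140 libraries Cmya5 stood at 52.3 ± 6.62%, AW495222 at 50.2 ± 11.8% and Fam169a at 58.7 ± 7.49% (SE). Bhmt2, at 81.6 ± 7.71%, stood close to the homozygote, and F2r, at 26 ± 11%, closer to unaltered Msh3. Without Q140 the same genes stood at 38.4 ± 18.8% and 42.3 ± 14.3%, and the difference between backgrounds was not tested. Vcan, which changed little, was at 95.1 ± 21.3% without Q140 and 11.5 ± 43.1% with it, so its position is not determined with Q140. In Q140 libraries, a test of each heterozygote against the midpoint of the logarithms passed for 0 members. It passed for 1 of all genes, Msh3 (0.00512%). At an unadjusted p under 0.05 it gave 0 members, against 650 of all genes.

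**Figure D4:**
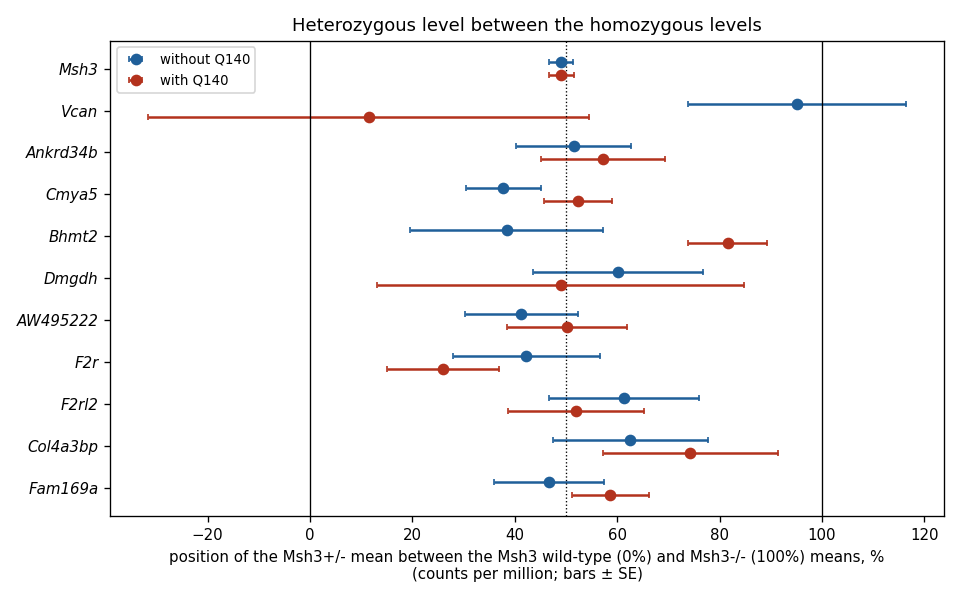
Position of the heterozygous mean between the means of unaltered Msh3 (0%) and Msh3-/- (100%) in CPM, for Msh3 and the 10 members, with SE, in blue without Q140 and in red with Q140. Msh3 is at 49.1% in both, and Bhmt2 with Q140 is at 81.6%.

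For Q140 itself no member passed the threshold, and so few of all genes did that this count does not set the members apart. Averaged over the 3 Msh3 genotypes, Q140 carriers against non-carriers gave 0 of 10 members called by edgeR, against 288 of all genes (1.47%). DESeq2 also gave 0 members. At an unadjusted edgeR p under 0.05 there was 1 member, Vcan, against 2944 of all genes. The lowest adjusted p was that of Vcan, 0.110, at a log2 fold change of -0.09 ± 0.03. This average includes the libraries that chose the members. The comparison of Q140 Msh3+/- against Msh3+/- uses none of them and gave 0 of 10 by edgeR and by DESeq2, against 0.0512% of all genes by edgeR. At an unadjusted edgeR p under 0.05 it gave 1 member, Cmya5, against 1518 of all genes. There the Cmya5 log2 fold change was -0.17 ± 0.07 (adjusted p 0.579).

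Whether the Msh3-/- difference changed with Q140 was asked with an interaction term, which contains the choosing comparison and is thereby pushed away from 0 for a member picked for a large difference. It passed for 0 members and for 0 of all genes (0%), by edgeR, and for 0 members by DESeq2. At an unadjusted p under 0.05 it found 1 member, Dmgdh (log2 difference -0.75 ± 0.29, unadjusted p 0.0135, adjusted p 0.9999), against 626 of all 19547 genes tested. The 95% interval of that interaction was -0.22 to 0.20 for Cmya5, -0.10 to 0.09 for Fam169a, -0.34 to 0.23 for F2r and -0.32 to 0.33 for AW495222.

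Sex was compared over all 6 genotypes. Fam169a was lower in females by edgeR (log2 fold change -0.08 ± 0.02, adjusted p 0.0117), the 1 member of 10 that passed, against 837 of all genes (4.28%). By the same test 5 members were at an unadjusted p under 0.05, against 3401 of the 19547 genes tested. Without the Q140 Msh3+/- library F1, the library high in AW495222, 2 members passed. Within Q140 libraries, the Ankrd34b log2 fold change for Msh3-/- was -0.20 ± 0.06 in females and -0.43 ± 0.06 in males. The interaction of sex with Msh3-/- passed for 0 members and 0 of all genes (0%) in edgeR. Ankrd34b was the 1 member of 10 at an unadjusted p under 0.05 (0.0107, adjusted p 0.838), against 1075 of the 18384 genes tested there. That count does not set the members apart.

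Lying near Msh3 was part of the rule that chose the members. How far the Msh3-/- differences reached along the chromosome was counted in the Q140 libraries. Of 212 other tested genes within 20 Mb, 11 passed in Q140 Msh3-/- against Q140 (5.19%), and 10 of these 11 were among the 65 tested genes within 5 Mb (15.4%). Between 10 and 20 Mb, 0 of 94 tested genes passed. The share over all genes tested was 0.102%, so a count of 0 of 94 cannot show where the differences end. Besides 8 members, which the rule took from this window, those that passed were Rasgrf2, Crhbp and Cartpt. Of the 11, only Rasgrf2 lies on the lower-coordinate side of Msh3, and Vcan, the member on that side, did not pass. Crhbp, which encodes the binding protein of corticotropin-releasing hormone, was higher (0.35 ± 0.07, adjusted p 0.0250) 3.08 Mb from Msh3, and Cartpt, a neuropeptide precursor, was higher (0.50 ± 0.11, adjusted p 0.0301) 7.54 Mb away. Without Q140 their log2 fold changes were 0.22 ± 0.07 and 0.05 ± 0.10. The tested genes just beyond the ends of a member mostly differed little: Papd4, 1.56 kb from Cmya5, had a log2 fold change of -0.11 ± 0.07 (adjusted p 0.763), Arsb, 18.8 kb from Dmgdh, one of -0.11 ± 0.03 (adjusted p 0.407), and Gfm2, 6.92 kb from Fam169a, one of 0.05 ± 0.04 (adjusted p 0.842).

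**Figure D5:**
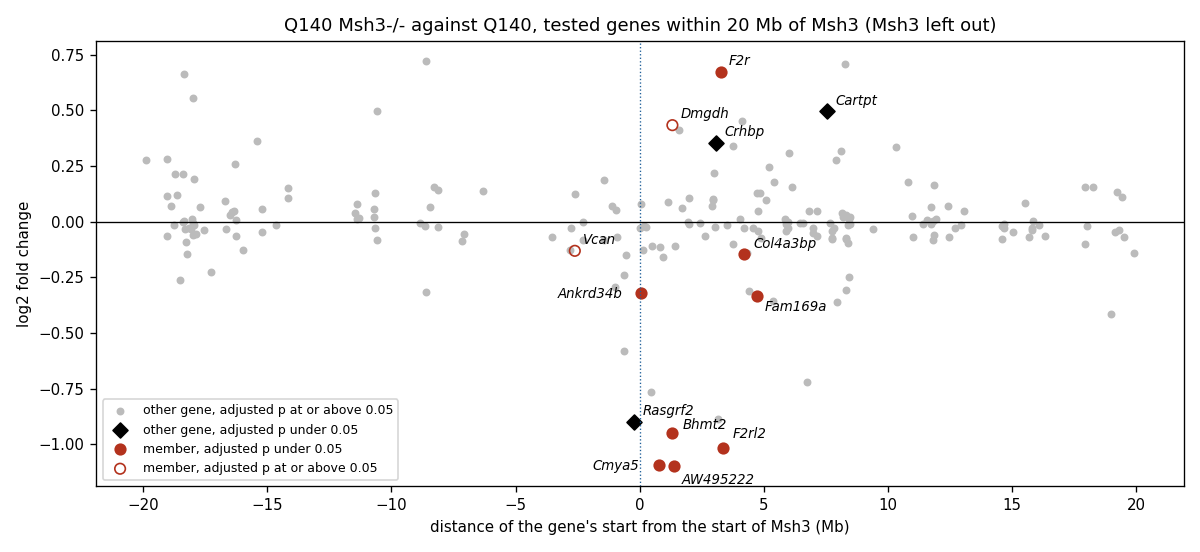
Log2 fold change in Q140 Msh3-/- against Q140 for the 212 tested genes within 20 Mb of Msh3, by distance of each gene's start from that of Msh3 in Mb. Members are red, filled where the adjusted p was under 0.05, and the other genes that passed, Rasgrf2, Crhbp and Cartpt, are black diamonds.

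As a description of likeness, log2 CPM was compared over the 48 libraries after removal of the sex means, with no test, since the libraries fall into genotype groups. With the members, Msh3 and Rasgrf2 left out, the 2 tested genes most like each member had Pearson coefficients between 0.571 and 0.724 in size, and 5 of the 20 lay on chromosome 13. Crhbp was among them for Cmya5 (-0.619) and for F2r (0.627), Mtx3 for Fam169a (0.696), Arsb for Ankrd34b (0.681) and Nnt, outside the 20 Mb, for Cmya5 (-0.621). Gm38340 and Gm37827 on chromosome 7 were the closest of these remaining genes to both AW495222 (0.611 and 0.614) and Dmgdh (-0.657 and -0.587), with opposite sign.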

How the data were processed

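RNA-seq of 48 cortex libraries was analysed. The submitters' processing notes name STAR 2.7.5c, SAMtools 1.10, HTSeq 0.12.3 and GRCm38; a TruSeq stranded kit is given per the labels' protocols, and the strand setting and annotation release are not given in the sources used here. The authors deposited raw counts per gene, which were tested, and FPKM values, used only to rank genes by level. Genes passing edgeR's filterByExpr (minimum count 10, total 15; 19547 of 48795) were normalised by TMM and fitted in 1 model of 6 groups plus sex (edgeR 4.0.16, R 4.3.3). Quasi-likelihood tests were two-sided, with Benjamini-Hochberg adjustment over all genes tested and a threshold of 0.05. The procedure was tested on simulated data.

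Gene positions came from GENCODE M21 (48435 genes matched by ID). The members and gene lists were chosen with earlier results of these data known. Named genes were the members, Msh3, relatives and nearest tested neighbours, the 5 window genes just outside the threshold, other window genes that passed, list genes that passed, and the 2 genes most like each member, with members, Msh3 and Rasgrf2 left out. One neighbouring gene is not reported here. Alternatives were DESeq2 1.42.0 (Wald test or size factors), limma 3.58.1, other filters, covariates and blocks, and leaving out each library. List genes passing in other comparisons are in the closing observations.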

Additional observations from a re-analysis of the deposited data

Results flagged for a closer look

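Over the 60 combinations of 10 members and 6 groups, a library stood far from the other 7 of its group in 3, by Dixon's criterion, which chance meets in about 1 of 20 groups. Q140 replicate F3 had 1.55 CPM of Bhmt2, where the next highest Q140 library had 1.07. Msh3+/- replicate M4 had 2.76 CPM of F2r, where the next lowest of its group had 4.79. Q140 Msh3-/- replicate F1 had 1.83 CPM of F2rl2, where the next highest had 1.24. Without Q140 replicate F3 and without Q140 Msh3-/- replicate F1, taken out one at a time, Bhmt2 and F2rl2 each kept an adjusted p under 0.05 in Q140 Msh3-/- against Q140.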

How the results depend on the processing

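In Q140 Msh3-/- against Q140, 7 or 8 members passed under all 9 alternatives (another normalisation, DESeq2, no filter, only the 2 groups, plate column, replicate block, name prefix, no libraries standing apart, no sex term, the last chosen after the data were seen), and 7 or 8 without any 1 library. The member gained or lost was Col4a3bp, with adjusted p 0.136 without the filter, 0.0774 with plate column and 0.305 in the fit of only the 2 groups. Ankrd34b, Cmya5, Bhmt2, AW495222, F2r, F2rl2 and Fam169a passed in each of these fits. In Q140 Msh3+/- against Q140, 2 or 3 members passed, the third being AW495222, with adjusted p 0.0379 without the filter, 0.0399 with plate column and 0.0176 with the name prefix. Counts without 1 library ran from 8 to 11 for genes of the 20 Mb window and from 1 to 2 for sex. No value that passed the test changed sign. The Vcan log2 fold change in Q140 Msh3+/- against Q140, -0.02 and not passing, ran from -0.04 to 0.0059 without 1 library. On log2 CPM the heterozygous Cmya5 moved from 37.8% to 29.8% without Q140 and from 52.3% to 43.2% with it.

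With the replicate number within sex as a replicate block, 8 and 2 members passed in the 2 comparisons with Q140, as without it. Same-numbered libraries did not deviate together (median correlation -0.041 over 8 pairs for the homozygotes and -0.028 for the heterozygotes, 0 pairs over 0.1), so the numbers do not pair the samples. The fit of only the groups compared was not run for Q140 averaged over genotypes or for sex, which use all groups, and the replicate block gave no sex value. Depth limits Bhmt2 and Dmgdh, with as few as 13 and 18 reads in a library.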

Other observations

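The pathway lists gave a few genes in the comparisons that do not turn on Msh3. Averaged over the 3 Msh3 genotypes, Chdh was higher in Q140 carriers (log2 fold change 0.41 ± 0.08, edgeR adjusted p 0.00124). The enzyme encoded by Chdh oxidises choline in the first step towards the betaine that the enzyme encoded by Bhmt uses. In the same average, by edgeR, Ahcyl1 was lower (-0.08 ± 0.02, adjusted p 0.00625). Ptprz1, a receptor phosphatase that carries chondroitin sulphate, was also lower there (-0.10 ± 0.03, adjusted p 0.0307). Females were higher by edgeR in Plcb4 (0.12 ± 0.03, adjusted p 0.00717), Cers1 (0.11 ± 0.02, adjusted p 1.33e-04), Acan (0.15 ± 0.04, adjusted p 0.0306), Hapln2 (0.22 ± 0.05, adjusted p 0.0111) and Adamts4 (0.19 ± 0.05, adjusted p 0.0335). None of the pathway list genes other than the members passed in a comparison of Msh3 genotypes. At most 0.113% of all genes passed in any of those comparisons, so this does not set the lists apart.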
